A study of Mus musculus with 6 samples.

Results

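H3K27 signal in the mouse kidney cell line mK3 was set against the input chromatin of the same cells, gene by gene. Members were all genes with at least 10 reads in the H3K27 and input libraries together, and 18414 of 21937 gene symbols (83.9%) met this. The other 3523 had too few reads to be placed. The labels describe mK3 as an immortalized E11.5 metanephric line of strain CD1. The metanephros is the rudiment of the permanent kidney, in which progenitors of the metanephric mesenchyme form nephrons after signals from the ureteric bud. The mK3 H3K27 library was made with an Active Motif antibody labelled H3K27, whose methylation degree the labels do not give, and the mK3 input library is chromatin without antibody. The same pair of libraries from mK4, a second line with the same labels for stage and strain, is given alongside. Each line and antibody had 1 library, so the spread between replicates is unknown, no p-value was computed, and every interval covers counting error only.

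Trimethylation of H3K27 is placed by Polycomb repressive complex 2, whose catalytic subunit is Ezh2 or Ezh1, and it is removed by the demethylases Kdm6a and Kdm6b. In mammals it is known for covering the genes of developmental transcription factors and signalling molecules in cells where these genes are silent, often over CpG-rich promoters and whole homeobox clusters. Genes that every cell transcribes generally lack it.

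The mK3 H3K27 library held 593079 reads over exons and the mK3 input library 311409, and a member gene had a median of 38 reads in both together. For each gene the fold is its share of the H3K27 reads divided by its share of the input reads. A gene was called enriched at 2-fold or more and depleted at 0.5 or less. Enriched genes numbered 3308 (18.0% of members) and depleted genes 2134 (11.6%), while 12972 (70.4%) lay between. The 95% exact (Clopper-Pearson) interval lay above 1 as well for 2016 enriched genes (10.9%) and below 1 for 1541 depleted genes (8.37%). Few reads widened the spread. Of genes with 10 to 19 reads, 27.5% were enriched, against 14.9% of genes with 80 reads or more. The median log2 fold over members was -0.02, with quartiles at -0.61 and 0.73.

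**Figure D1:**
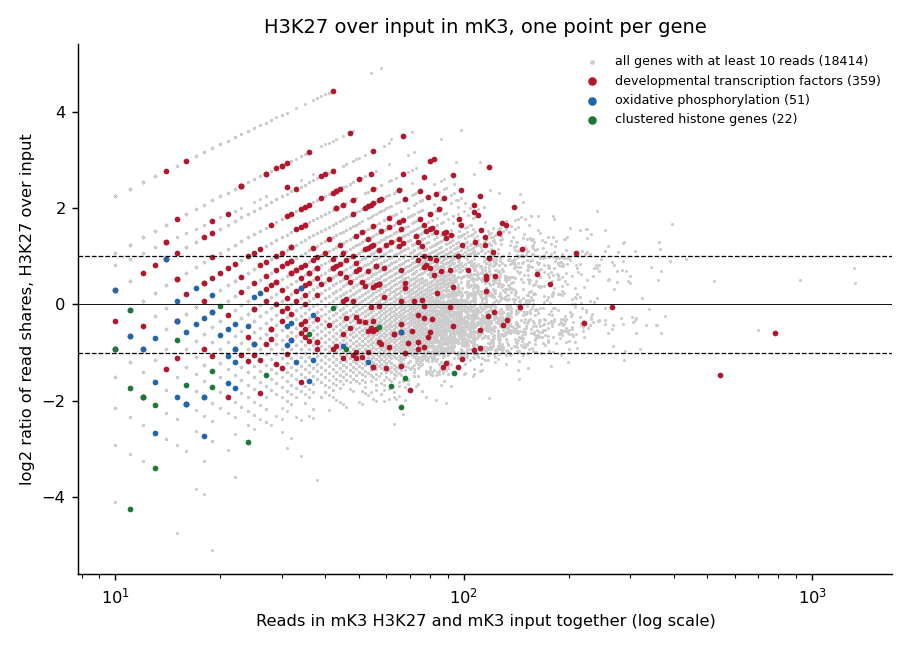
Log2 ratio of read shares, H3K27 over input (y axis), against the reads of a gene in the 2 mK3 libraries together (x axis, log scale), 1 grey point per member gene with developmental factors (red), oxidative phosphorylation genes (blue) and clustered histone genes (green) on top, and dashed lines at 2-fold and 0.5. The spread is wide at few reads, the developmental factors have a median of 0.71, and 14 of the 22 histone genes lie below the lower line.

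The fold depends on both libraries, so each gene's reads per exon kilobase were also set against the mean density of all genes in the same library. Enriched genes had a median H3K27 density of 1.45 times that mean and a median input density of 0.45 times it. Depleted genes had medians of 0.655 for H3K27 and 1.69 for input. Low input density therefore went together with a call of enriched, and high input density with a call of depleted; the part of input density in these calls was not tested. A stricter class was counted for this reason: 654 genes (3.55% of members) were at 2-fold or more over input and also over exon length, and 606 (3.29%) were at 0.5 or less on both.

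The genes whose fold had the highest lower bound, clone-named genes, chemosensory receptors and sex chromosome genes left aside, were of several kinds. Adra2b, an adrenergic receptor gene, had 94 H3K27 reads and 4 input reads, a 12.3-fold enrichment with an interval of 4.66 to 46.2. Cbln1, which encodes a secreted synapse organizer, had 82 reads and 4 reads (10.8-fold). Shank1, a postsynaptic scaffold gene, had 104 and 7 reads (7.80-fold). Sox2, a regulator of pluripotent and neural stem cells, had 41 H3K27 reads and 1 input read, and its 21.5-fold enrichment has an interval from 3.65 to 871. Egr4, a zinc finger factor of neurons, and Selplg, a selectin ligand of leukocytes, likewise stood on 57 and 53 H3K27 reads against 1 input read each. Tmem130 had 62 H3K27 reads and no input read, and was 10.9-fold higher against a floor of 3 input reads. The lower bound of its interval was 8.57. On the same floor Cplx1, a gene of synaptic vesicle release, was 6.48-fold higher (37 reads, lower bound 5.01). Khdc1b and the sulfotransferase gene Sult1c1 were 4.73-fold higher on it (27 reads and a lower bound of 3.59 each). Against exon length Tmem130 lay at 2.38, Cplx1 at 1.77, Khdc1b at 1.26 and Sult1c1 at 1.86. Members with no input read met the read minimum through the H3K27 library alone. There were 137 of them, and 95 were called enriched. The sulfotransferase gene Chst4 had 40 reads and 1 read (21.0-fold, interval 3.56 to 850), and the peptidase gene Ecel1 had 68 and 3 (11.9-fold). Among the transcription factors, Tlx1 (64 and 3 reads, 11.2-fold), which is needed for spleen formation, and Lhx1 (110 and 8 reads, 7.22-fold), a LIM factor of the early nephron, belonged to this group. Sequence upstream of the start site is shown for 4 genes to set an enriched developmental factor, an enriched factor with no input read, an enriched muscle gene and a depleted respiratory chain gene side by side. These are the 250 bases before the start of Tlx1, Tcfap2e, Mybpc2 (46 and 2 reads, 12.1-fold) and Ndufs3 (4 and 14 reads, 0.15 of the input share), from RefSeq on GRCm38.p6, 5′ to 3′ on the gene's strand, with each CG in capitals.
Tlx1, chr19:45150465-45150714, plus strand: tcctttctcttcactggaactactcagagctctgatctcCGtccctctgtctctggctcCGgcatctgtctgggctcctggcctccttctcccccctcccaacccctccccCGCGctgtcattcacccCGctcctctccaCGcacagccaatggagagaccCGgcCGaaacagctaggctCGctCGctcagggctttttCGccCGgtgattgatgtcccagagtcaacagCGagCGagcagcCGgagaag
Tcfap2e, chr4:126736270-126736519, minus strand: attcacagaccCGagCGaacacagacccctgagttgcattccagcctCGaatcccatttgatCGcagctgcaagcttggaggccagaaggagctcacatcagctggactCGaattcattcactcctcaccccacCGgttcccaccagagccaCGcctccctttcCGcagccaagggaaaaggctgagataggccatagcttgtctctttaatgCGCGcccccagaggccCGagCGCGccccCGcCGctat
Mybpc2, chr7:44524670-44524919, minus strand: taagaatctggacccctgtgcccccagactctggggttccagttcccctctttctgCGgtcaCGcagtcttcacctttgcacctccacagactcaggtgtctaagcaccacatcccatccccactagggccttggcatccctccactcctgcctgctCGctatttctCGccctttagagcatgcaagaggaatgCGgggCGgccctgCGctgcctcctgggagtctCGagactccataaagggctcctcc
Ndufs3, chr2:90904722-90904971, minus strand: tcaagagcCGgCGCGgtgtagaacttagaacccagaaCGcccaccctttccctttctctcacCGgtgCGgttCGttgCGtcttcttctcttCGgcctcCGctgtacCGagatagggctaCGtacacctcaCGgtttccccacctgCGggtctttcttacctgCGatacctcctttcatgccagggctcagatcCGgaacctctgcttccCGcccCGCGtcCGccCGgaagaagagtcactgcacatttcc
The motif searched was CG, which reads the same on both strands. The Tlx1 and Tcfap2e windows held 15 each, a number reached by 27.3% of all 32851 promoter windows of this length in the table. The Mybpc2 window held 8 (reached by 43%) and the Ndufs3 window 21 (reached by 16.3%). The depleted gene thus had the most CG of the 4. Promoter entries covered 77.7% of members, too few to compare the classes, and the reads lie over exons and not in these windows.

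Developmental transcription factors were enriched more often than members at large. Of 365 such genes in the files, 359 were members, of which 136 were enriched (37.9%, against 18.0% of all members), 29 were depleted (8.08%, against 11.6%) and 194 lay between. Their median log2 fold was 0.71, against -0.02 over all members, and their summed reads gave 1.35-fold with an interval of 1.31 to 1.39. Summed folds and densities of a list take in all its genes, also those under 10 reads. Of the enriched factors, 123 also had an interval above 1 (34.3% of the member factors, against 10.9% of all members). At 2-fold or more over exon length too were 81 (22.6%, against 3.55% of all members). As a class they had 1.55 times the mean H3K27 density and 1.15 times the mean input density. The median log2 fold was over 0 in 14 of the 18 families.

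The Nkx factors, homeobox genes of the ventral brain, heart and foregut, led the families. All 13 were members and 12 were enriched, none was depleted, and their median log2 fold was 2.00. Their summed reads gave 2.98-fold (interval 2.40 to 3.74). Nkx2-1, the thyroid and lung factor, had 79 H3K27 reads and 9 input reads (4.61-fold, interval 2.31 to 10.4). Nkx6-1, a factor of motor neurons and beta cells, had 43 and 5 reads (4.52-fold), and Nkx2-6 had 39 and 4 reads (5.12-fold). Nkx6-3, with 49 and 19 reads (1.35-fold, interval 0.783 to 2.44), was the 1 member of the family that was not called. The Nkx genes had 2.48 times the mean H3K27 density and 0.832 times the mean input density.

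Brain and body axis homeobox genes, such as those of the Otx, En, Tlx and Cdx families, were enriched in 29 of 45 members with none depleted (median log2 fold 1.56, summed 2.72-fold). Tlx3, a factor of sensory interneurons, had 45 H3K27 reads and 2 input reads (11.8-fold, interval 3.09 to 101). Uncx, which patterns the somites and is also made in nephron progenitors, had 75 and 5 reads (7.88-fold). Cdx2, the hindgut and trophectoderm factor, had 86 and 7 reads (6.45-fold, interval 3.0 to 16.5). Emx2, which the ureteric bud needs, had 20 and 18 reads (0.583-fold, interval 0.293 to 1.17), and En1 had the same counts. Neurogenic basic helix-loop-helix factors were enriched in 12 of 22 members with none depleted (median 1.16). Olig3 had 50 and 5 reads (5.25-fold), Neurog3, which starts endocrine pancreas differentiation, 39 and 4 (5.12-fold), and Neurod2 96 and 14 (3.60-fold, interval 2.04 to 6.83).

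LIM homeobox genes were enriched in 6 of 12 members, POU genes in 7 of 13, and the Tfap2, Ebf and Onecut group in 12 of 22, with no depleted gene in any of these families. Their median log2 folds were 1.3, 1.09 and 1.15. Besides Lhx1, the LIM gene Lhx5 had 84 and 13 reads (3.39-fold). Pou3f3, which acts in the brain and in the loop of Henle, had 50 and 4 reads (6.56-fold). Prdm12, a factor of pain-sensing neurons, had 77 and 5 reads (8.09-fold), and Prdm13 had 71 and 6 (6.21-fold). Tcfap2e, with 31 H3K27 reads and no input read, was 5.43-fold higher on the floor of 3 input reads (lower bound 4.16). Against exon length Tcfap2e lay at 1.53. Sox genes were enriched in 8 of 18 members and depleted in 1 (median 0.95). Sox1, a neural plate factor, had 94 and 13 reads (3.8-fold, interval 2.12 to 7.39), while Sox4, made in many embryonic progenitors, had 31 and 30 reads (0.543-fold, interval 0.318 to 0.928).

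Pax genes, T-box genes and mesodermal basic helix-loop-helix genes stood lower, with medians of 0.81, 0.76 and 0.76. The 4 enriched Pax genes of 9 were Pax9 (51 and 6 reads, 4.46-fold), Pax1 (46 and 6, 4.03-fold), Pax3 (66 and 12, 2.89-fold) and Pax7 (53 and 12, 2.32-fold), which act in the skeleton, neural crest and muscle. The kidney Pax genes were not called: Pax2 had 33 and 10 reads (1.73-fold, interval 0.834 to 3.94), and Pax8 had 30 and 19 (0.829-fold, interval 0.452 to 1.56). Tbx21, the T helper cell factor, had 75 and 10 reads (3.94-fold). Hand2, a heart and limb factor, had 40 and 5 reads (4.20-fold). Myog, the myogenic factor myogenin, had 14 H3K27 reads and no input read (2.45-fold on the floor, lower bound 1.74). Against exon length Myog lay at 0.992.

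Other families stood lower. Their counts are set beside 18.0% enriched and 11.6% depleted over all members. Forkhead genes were enriched in 13 of 43 and depleted in 4 (median 0.39), with Foxb1 at 100 and 11 reads (4.77-fold) and Foxj3 at 26 and 34 (0.402-fold). Dlx and Msx genes were enriched in 1 of 9 and depleted in 1. These were Dlx3 (70 and 10 reads, 3.68-fold), a factor of skin and placenta, and Msx1 (9 and 17 reads, 0.278-fold, interval 0.109 to 0.659), a mesenchymal factor. GATA genes were enriched in 1 of 6 and depleted in 2, Gata5 at 51 and 11 reads (2.43-fold) standing against Gata6 at 24 and 31 (0.407-fold, interval 0.228 to 0.716). The Zic, Gli, Sall and Snail zinc finger genes were enriched in 5 of 20 and depleted in 3, and Zic2, a forebrain factor, had 123 and 16 reads (4.04-fold, interval 2.39 to 7.28).

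Mesenchymal homeobox genes, such as those of the Alx, Meis and Prrx families, were the family without any enriched gene. None of 15 was enriched (against 18.0% of all members) and 3 were depleted (20%, against 11.6%), and their summed reads gave 0.815-fold. Meis2 had 42 H3K27 reads and 54 input reads (0.408-fold, interval 0.266 to 0.623). Alx1 had 38 and 10 reads and lay just under the 2-fold line, with an interval of 0.976 to 4.49.

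**Figure D2:**
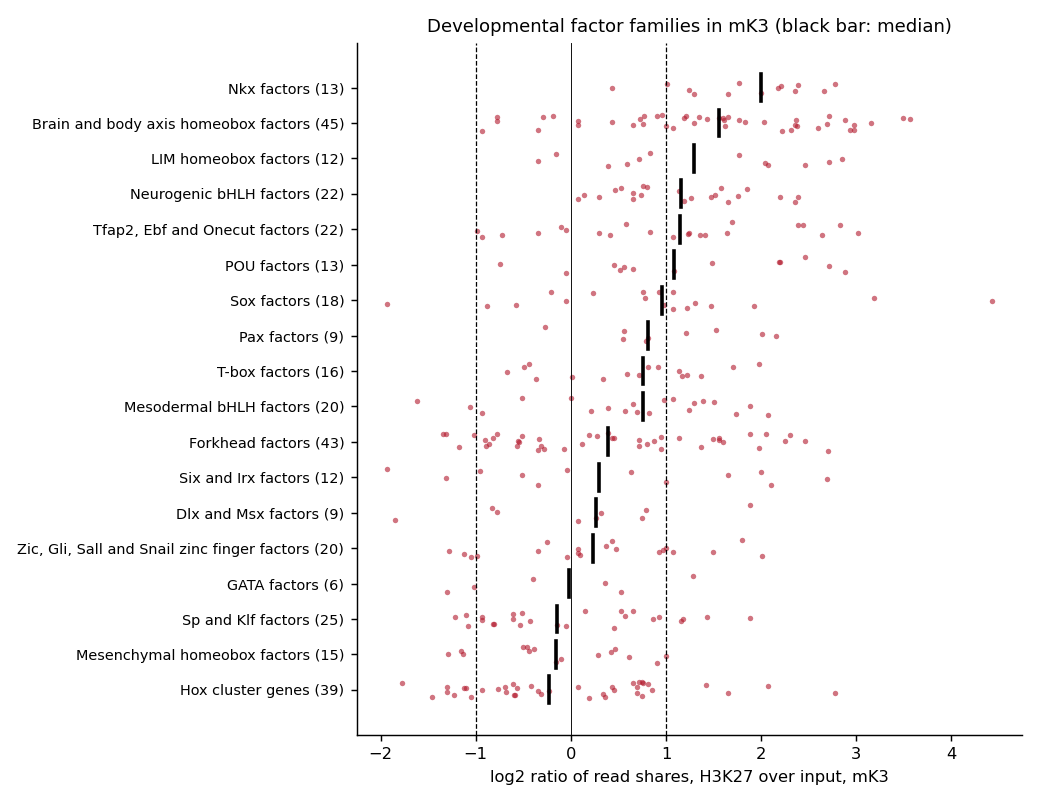
Log2 ratio of read shares, H3K27 over input in mK3 (x axis), for each member of the 18 developmental factor families, 1 point per gene, with a black bar at the family median and dashed lines at 2-fold and 0.5. The Nkx family sits highest with a median of 2.00, and the Hox genes lie lowest with a median of -0.23.

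The Hox genes, which set position along the body axis, were, like the mesenchymal homeobox genes, low in fold. Of 39 genes 4 were enriched (10.3%, against 18.0% of all members) and 8 depleted (20.5%, against 11.6%), and their summed reads gave 0.70-fold (interval 0.650 to 0.755). Their H3K27 density was nevertheless 2.24 times the mean of all genes, beside an input density of 3.19 times. A large part of these reads lay in Hoxa10 and Hoxa11. Hoxa11, a regulator of metanephric mesenchyme, had 437 H3K27 reads and 347 input reads (0.661-fold, interval 0.573 to 0.764), and Hoxa10 had 223 and 322 (0.364-fold, interval 0.305 to 0.433). Their H3K27 densities were 20.4 and 7.45 times the mean, and their input densities 30.9 and 20.5 times. The mK4 input was high at them too, with 245 and 175 reads. Whether these genes are present in extra copies was not tested. Without them, a setting added after the data were seen, the other 37 Hox genes summed to 990 and 568 reads (0.915-fold, interval 0.825 to 1.02), with densities of 1.44 for H3K27 and 1.58 for input. The other 9 HoxA genes then came to 0.736-fold (interval 0.596 to 0.912). No HoxA gene of 11 was enriched and 2 were depleted, namely Hoxa10 and Hoxa9 (25 and 45 reads, 0.292-fold). Both were above 1 against exon length, at 7.45 and 1.15.

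The HoxD cluster went the other way. Of its 9 genes 3 were enriched and none depleted, and its summed 293 H3K27 reads and 80 input reads gave 1.92-fold (interval 1.5 to 2.49), with input density at 0.857 times the mean. Hoxd13, a digit and genital tubercle factor, had 61 and 12 reads (2.67-fold), Hoxd9 had 32 and 4 (4.20-fold), and Hoxd3 had 39 and 3 (6.83-fold, interval 2.17 to 34.5). HoxB genes summed to 270 and 168 reads (0.844-fold, interval 0.693 to 1.03) with 1 gene of 10 enriched, Hoxb13 at 30 and 5 reads (3.15-fold). HoxC genes summed to 211 and 166 reads (0.667-fold, interval 0.542 to 0.823) with none of 9 enriched and 3 depleted. In mK4 the HoxC genes together were at 2.79-fold (interval 2.15 to 3.65) and HoxA at 0.584-fold. Without the 39 Hox genes, a setting added after the data were seen, the developmental factors together came to 1.52-fold.

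**Figure D3:**
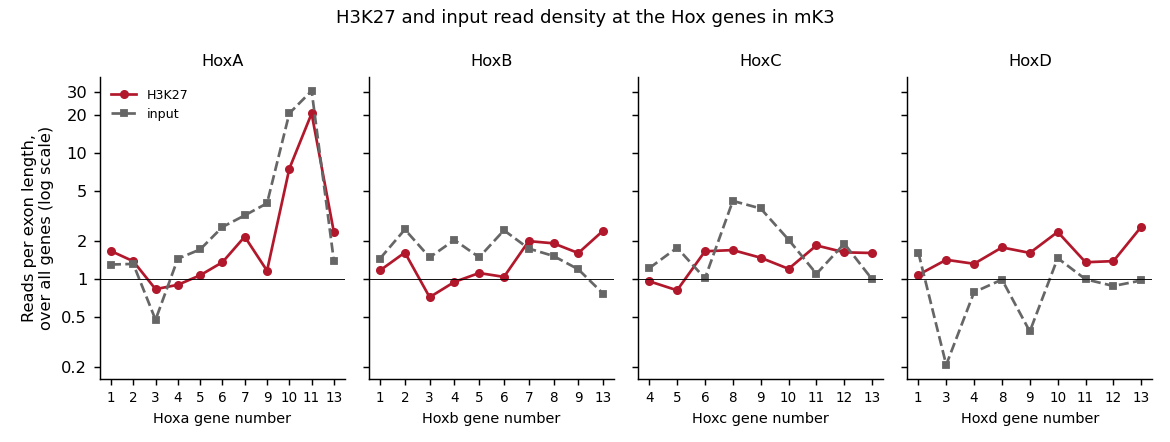
Reads per exon length relative to all genes (y axis, log scale) for each Hox gene in the mK3 H3K27 library (red circles) and input library (grey squares), ordered by gene number within each cluster. Hoxa10 and Hoxa11 are high in both libraries, and in the HoxD cluster the H3K27 points lie above the input points except at Hoxd1.

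Signalling genes were mixed. Their counts are set beside 18.0% enriched and 11.6% depleted over all members. Wnt ligands were enriched in 6 of 19 (31.6%) with none depleted (median log2 fold 0.86, summed 1.87-fold). Wnt1, a ligand of the midbrain and neural crest, had 66 and 5 reads (6.93-fold), Wnt7b, which the collecting duct secretes, 99 and 8 (6.50-fold, interval 3.17 to 15.5), and Wnt6 66 and 9 (3.85-fold). Wnt4, the nephron inducer, had 11 H3K27 reads and no input read. It was 1.93-fold higher on the floor (lower bound 1.32), under the line for a call. Wnt receptors and antagonists were enriched in 10 of 36 (27.8%) and depleted in 2 (median 0.18, summed 1.08-fold). Those with the highest lower bounds were the secreted antagonists Sfrp5 (38 and 3 reads, 6.65-fold), Wif1 (64 and 11, 3.06-fold) and Notum (50 and 9, 2.92-fold). The receptor Fzd7 had 53 and 57 reads (0.488-fold, interval 0.329 to 0.722), but lay at 1.16 against exon length.

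BMP and GDF ligands and antagonists were enriched in 12 of 33 (36.4%, against 18.0% of all members) and depleted in 1 (3.03%, against 11.6%). FGF ligands were enriched in 7 of 19 (36.8%) with none depleted. An interval above 1 as a further condition left 8 BMP and GDF genes (24.2%) and 5 FGF genes (26.3%), against 10.9% of all members. Over exon length as well, 3 genes of each list were enriched (9.09% and 15.8%, against 3.55% of all members). Noggin (Nog), the BMP antagonist, had 84 and 14 reads (3.15-fold, interval 1.78 to 6.01), and Gdf10 had 53 and 5 (5.57-fold). Bmp7, the survival ligand of nephron progenitors, had 19 and none (3.33-fold on the floor, lower bound 2.45). Against exon length Bmp7 lay at 1.01. Fgf9, another progenitor ligand, had 141 and 30 reads (2.47-fold, interval 1.65 to 3.79), and Fgf10 had 54 and 25 (1.13-fold). Notch pathway genes were enriched in 8 of 26 (30.8%), or 23.1% with the interval condition, and depleted in 2 (7.69%). Enriched were the target Hes5 (26 and 0 reads, 4.55-fold on the floor, lower bound 3.44), the ligand Dll4 (69 and 13, 2.79-fold) and the feedback inhibitor Nrarp (73 and 10, 3.83-fold), among others. Against exon length Hes5 lay at 2.14. The receptor Notch2 had 49 and 49 reads (0.525-fold, interval 0.346 to 0.797). Sonic hedgehog (Shh) had 62 and 5 reads (6.51-fold, interval 2.65 to 20.8), and its signal transducer Smo had 25 and 28 (0.469-fold, interval 0.262 to 0.834).

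Kidney genes did not behave as 1 class. These values are chromatin signal and not expression, so the kidney identity in the label could not be checked on them. GDNF and Ret pathway genes were enriched in 7 of 15 (46.7%, against 18.0% of all members) with none depleted. An interval above 1 as a further condition left 5 (33.3%, against 10.9% of all members). Over exon length as well, 2 were enriched (13.3%, against 3.55%). The co-receptor Gfra1 had 46 and 7 reads (3.45-fold, interval 1.55 to 9.06), Ret itself, the ureteric bud receptor, 115 and 33 (1.83-fold, interval 1.23 to 2.78), and its ligand Gdnf 47 and 19 (1.3-fold). Genes of the nephron progenitor were enriched in 6 of 22 (27.3%, against 18.0% of all members) and depleted in 1 (4.55%, against 11.6%). Their median log2 fold was 0.43 although their summed reads gave 0.970-fold. The sum is dominated by Hoxa11, and without that gene it was 1.33-fold (interval 1.16 to 1.53). Six2, which keeps nephron progenitors undifferentiated, had 49 and 6 reads (4.29-fold, interval 1.84 to 12.2). Most other progenitor regulators fell between the lines, with Wt1 at 22 and 9 reads (1.28-fold), Eya1 at 44 and 20 (1.16-fold) and Sall1 at 44 and 22 (1.05-fold). Osr1, an early factor of the intermediate mesoderm, had 12 and 13 reads (0.485-fold, interval 0.202 to 1.15) and was called depleted, though its interval holds 1.

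Genes of the induced nephron were enriched in 8 of 23 (34.8%, against 18.0% of all members) and depleted in 2 (8.70%, against 11.6%), with a median of 0.85. Lhx1 and Pou3f3 led this list, and Irx3, an Iroquois factor of the developing nephron, had 37 and 3 reads (6.48-fold). Irx2 of the same family had 7 and 14 reads (0.263-fold, interval 0.0897 to 0.695), and Mecom, a zinc finger factor of the distal tubule, had 38 and 47 (0.425-fold). Ureteric bud and collecting duct genes were enriched in 7 of 23 (30.4%), or 21.7% with an interval above 1 (against 10.9% of all members), and depleted in 1 (4.35%). The anion exchanger Slc4a1 was at 114 and 18 reads (3.33-fold, interval 2.01 to 5.81) and Gata3, a bud factor, at 15 and 16 (0.492-fold, interval 0.227 to 1.06). Proximal tubule genes were enriched in 8 of 22 (36.4%) with none depleted, such as the glucose carrier Slc5a1 (90 and 11 reads, 4.30-fold) and the organic anion carrier Slc22a6 (76 and 17, 2.35-fold). The interval condition left 5 proximal tubule genes (22.7%, against 10.9% of all members). Over exon length as well, 2 were enriched (9.09%, against 3.55%). Podocyte genes were near the background with 3 of 15 enriched (20%, against 18.0% of all members), among them Lmx1b (21 and 2 reads, 5.51-fold) and nephrin, Nphs1 (59 and 13, 2.38-fold), while Vegfa was depleted (30 and 38, 0.415-fold).

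Stromal and mesenchymal genes had the lowest values among the tissue lists. Renal stroma genes were enriched in 2 of 20 (10%, against 18.0% of all members) and depleted in 4 (20%, against 11.6%), with a median of -0.09. Mesenchymal genes were enriched in 2 of 25 (8%) and depleted in 4 (16%), with a median of -0.42 and a summed fold of 0.804. With so few genes these shares are not far from those of all members. The interval lay below 1 for only 1 of the 4 depleted mesenchymal genes. The enriched stroma genes were Ren1 (22 and 3 reads, 3.85-fold, interval 1.16 to 20.1) and Lum (26 and 6, 2.28-fold, interval 0.916 to 6.76). The enriched mesenchymal genes were Tgfbi (29 and 7, 2.18-fold, interval 0.932 to 5.88) and Mmp2 (41 and 10, 2.15-fold, interval 1.06 to 4.82). At the low end Col1a1, the fibrillar collagen chain, had 72 and 70 reads (0.540-fold, interval 0.383 to 0.761), and Postn, the matrix protein periostin, had 31 and 41 (0.397-fold, interval 0.241 to 0.649). Snai2, a repressor of E-cadherin, had 24 and 25 reads (0.504-fold). The stromal factor Foxd1 had 31 and 24 reads (0.678-fold, interval 0.385 to 1.21). Col1a1 had 1.59 times the mean H3K27 density and 2.95 times the mean input density. The part of input density in its fold was not tested.

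Epithelial junction genes were the converse list, with 16 of 37 enriched (43.2%, against 18.0% of all members) and none depleted (median 0.66, summed 1.68-fold). Their H3K27 density was 1.25 times the mean and their input density 0.743 times. Of them 3 (8.11%) were enriched over exon length as well, against 3.55% of all members. Cdh1, which encodes E-cadherin, had 83 and 21 reads (2.08-fold, interval 1.27 to 3.53), while the splicing factor gene Esrp1 of epithelia held 64 and 7 (4.80-fold). Cldn3, a tight junction claudin, had 20 reads and 1 read (10.5-fold, interval 1.68 to 435), and the polarity gene Crb3 had 30 and 2 (7.88-fold, interval 2.00 to 68.0). Endothelial genes were enriched in 9 of 20 (45%) with none depleted, and 1 (5%) was enriched over exon length as well. Their H3K27 density was 1.54 times the mean and their input density 0.866 times. Sox18 had 52 and 3 reads (9.10-fold), the lymphatic receptor Flt4 80 and 8 (5.25-fold), and Cdh5, vascular cadherin, 65 and 12 (2.84-fold).

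Lists of tissues far from kidney were all above the member median. Their counts are set beside 18.0% enriched and 11.6% depleted over all members. Neuronal function genes were enriched in 18 of 45 with none depleted (median 0.83), among them Slc32a1, the vesicular GABA carrier (58 and 3 reads, 10.2-fold), and the neurofilament gene Nefl (117 and 20, 3.07-fold). Muscle and heart contractile genes were enriched in 14 of 28 and depleted in 2 (median 0.97). Input density was low in both lists, at 0.749 times the mean for the neuronal and 0.606 times for the muscle genes. Their H3K27 densities were 1.25 and 1.08 times the mean. Over exon length as well, 3 neuronal genes (6.67%) and 2 muscle genes (7.14%) were enriched, against 3.55% of all members. Ryr1, the calcium release channel of skeletal muscle, had 157 and 23 reads (3.58-fold, interval 2.30 to 5.82), and the myosin gene Myh7 had 88 and 17 (2.72-fold). Blood and immune genes were enriched in 7 of 23, such as Ikzf3 (107 and 19 reads, 2.96-fold), and liver and gut genes in 6 of 22, such as the fibrinogen gene Fga (43 and 6, 3.76-fold). Germline genes were near the background, with 7 of 30 enriched (23.3%, against 18.0%), or 10% with an interval above 1 (against 10.9%), and a median of 0.46. Potassium channel genes, with 48 of 93 enriched and none depleted, had the highest median of the 20 symbol families (1.02, summed 1.74-fold), though not the highest summed fold, and keratin genes had 22 of 51 enriched and none depleted (median 0.88, summed 1.77-fold). The potassium channel genes had 1.28 times the mean H3K27 density and 0.733 times the mean input density, and 9 (9.68%) were enriched over exon length as well. Kcna1 had 215 and 39 reads (2.89-fold, interval 2.05 to 4.18), and the hair follicle keratin Krt75 had 68 and 5 (7.14-fold).

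**Figure D4:**
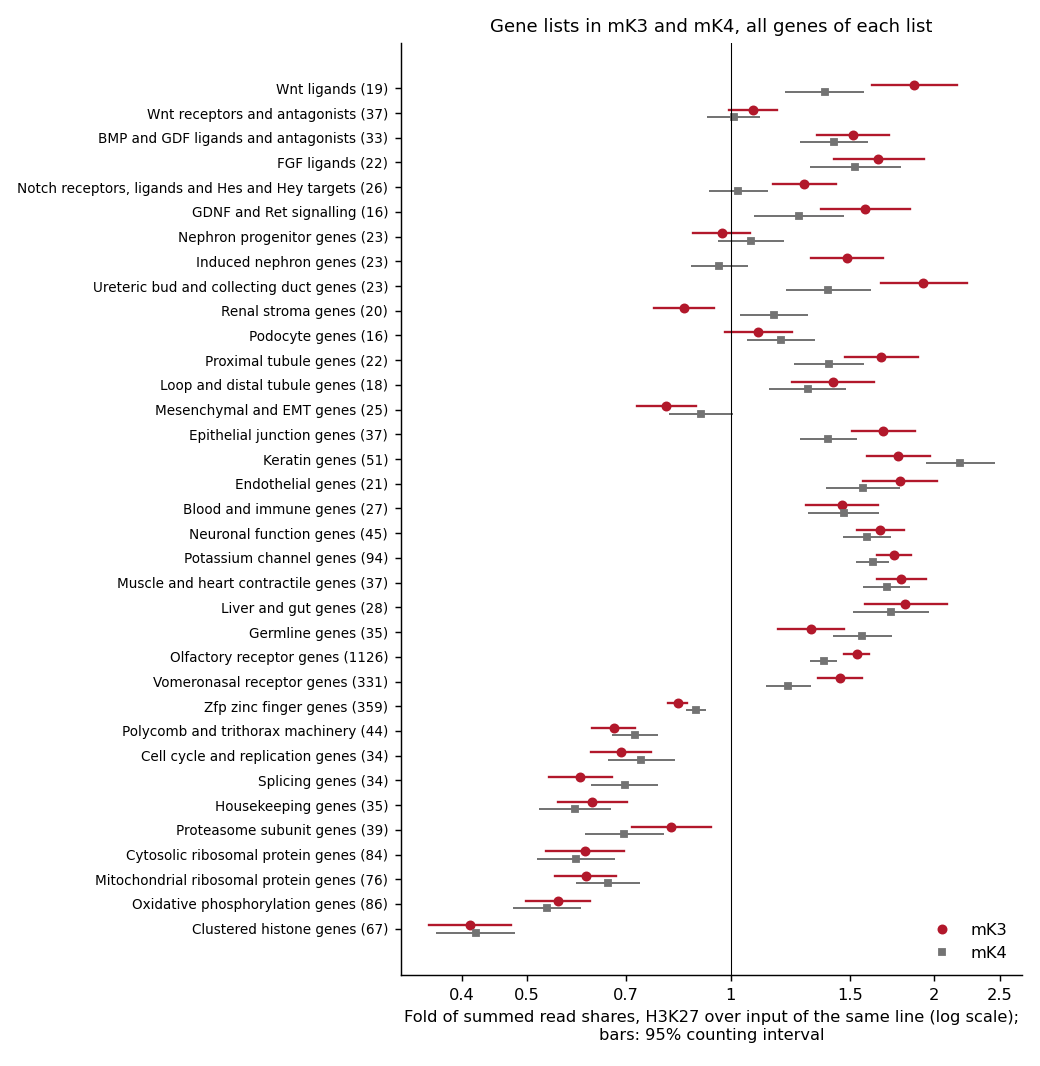
Fold of summed reads, H3K27 over input of the same line (x axis, log scale), for gene lists outside the factor families in mK3 (red circles) and mK4 (grey squares), with 95% counting intervals as bars and the number of genes in brackets. In mK3 the Wnt ligands reach 1.87 and the ureteric bud list 1.93, and the clustered histone genes lie lowest at 0.412.

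Genes of growth and basic cell function lay at the other end. The 8 lists of this kind, from ribosome, proteasome and splicing genes to the Polycomb machinery, each had a median log2 fold below 0, less than the mean H3K27 density and more than the mean input density. Their H3K27 densities ran from 0.681 (cytosolic ribosomal protein genes) to 0.983 times the mean (proteasome genes). Input densities ran from 1.12 (cytosolic ribosomal protein genes) to 1.57 times the mean (oxidative phosphorylation genes). The part of input density in these low folds was not tested. Clustered histone genes were lower still, with none of 22 enriched and 14 depleted (63.6%, against 11.6% of all members). Their median was -1.50 and their summed reads gave 0.412-fold (interval 0.358 to 0.474). Hist1h4h had 5 H3K27 reads and 19 input reads (0.138-fold, interval 0.0403 to 0.383), with H3K27 density at 1.1 and input density at 7.94 times the mean, so against exon length it lay above 1. Of 67 histone genes in the files, 22 reached 10 reads. Oxidative phosphorylation genes were depleted in 18 of 51 (35.3%) with none enriched (summed 0.556-fold), and mitochondrial ribosomal protein genes in 18 of 57 (31.6%) with none enriched (0.610-fold). Mrps34, of the small mitochondrial ribosomal subunit, had 9 and 25 reads (0.189-fold, interval 0.0776 to 0.419), and lay at 1.05 against exon length. Cell cycle and replication genes were depleted in 8 of 34 (23.5%) with none enriched, cyclin A2 (Ccna2) having 9 and 22 reads (0.215-fold, interval 0.0871 to 0.485). Splicing genes were depleted in 7 of 26 (26.9%) and enriched in 1, and Srsf7 had 26 and 52 reads (0.263-fold, interval 0.157 to 0.428).

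Cytosolic ribosomal protein genes were depleted in 12 of 33 members (36.4%, against 11.6% of all members) and enriched in 4 (12.1%, against 18.0%). Their summed reads gave 0.609-fold (interval 0.533 to 0.696), and 51 more genes had under 10 reads. The 4 enriched ones were Rplp0 (13 and 2 reads), Rpl3l (18 and 4), a muscle paralog, Rpl31 (12 and 3) and Rps14 (8 and 2), and the interval held 1 for each. Against exon length Rplp0 lay at 0.999. Rpl27 had 4 and 14 reads (0.150-fold, interval 0.0360 to 0.478). Reads of these genes can also come from processed pseudogenes, and how such reads were placed is not given in the sources used here. Of the proteasome genes 7 of 32 were depleted (21.9%) and 4 enriched (12.5%). The enriched ones included Psma8 (26 and 3 reads, 4.55-fold, interval 1.39 to 23.5), a testis subunit, and Psmb8 (22 and 5, 2.31-fold, interval 0.854 to 7.81), an immunoproteasome subunit. Psmb1 of the standard particle had 3 and 12 reads (0.131-fold, interval 0.0238 to 0.486). The beta-actin gene Actb had 29 and 28 reads (0.544-fold, interval 0.312 to 0.949). Its H3K27 density was 1.61 times the mean and its input density 2.96 times. Gapdh had 1 and 8 reads and was no member.

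Genes for the Polycomb and trithorax machinery were themselves low. None of 43 was enriched, against 18.0% of all members, and their summed reads gave 0.671-fold. The 7 depleted genes (16.3%) were nearer the share of all members (11.6%). Kdm6a, the H3K27 demethylase, had 24 and 37 reads (0.341-fold, interval 0.195 to 0.585), and Dpy30, a subunit of the H3K4 methyltransferase complexes, had 7 and 18 (0.204-fold, interval 0.0721 to 0.512). Bmi1, of Polycomb repressive complex 1, had 29 and 11 reads (1.38-fold, interval 0.671 to 3.07). Of the cell cycle inhibitors and p53 genes, Cdkn2b was depleted at 12 and 29 reads (0.217-fold, interval 0.101 to 0.439), and its neighbour Cdkn2a, often described as a Polycomb target, lay between at 15 and 10 (0.788-fold, interval 0.331 to 1.96).

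**Figure D5:**
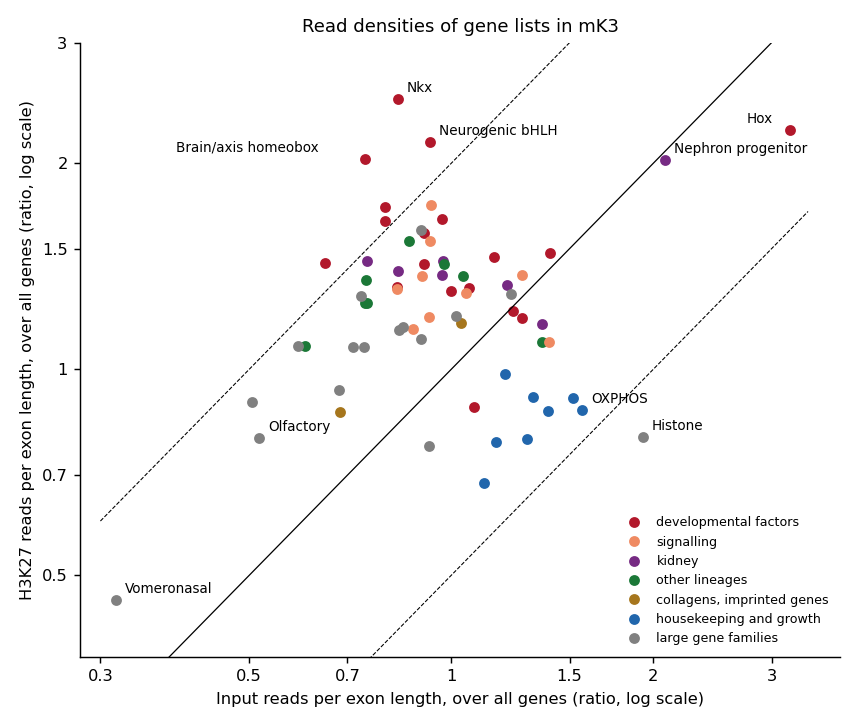
H3K27 density (y axis) against input density (x axis) of each gene list in mK3, both relative to all genes on log scales, 1 point per list coloured by class, with a solid line of equal shares and dashed lines at 2-fold and 0.5. The Hox genes lie at 2.24 for H3K27 and 3.19 for input, whereas the olfactory receptor genes lie at 0.794 and 0.517.

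Chemosensory receptor genes were above the member median in fold but low in both libraries. Olfactory receptor genes were enriched in 226 of 541 members (41.8%, against 18.0% of all members) and depleted in 35 (median 0.77, summed 1.54-fold, interval 1.47 to 1.60). With an interval above 1 as a further condition the count was 60 (11.1%), close to the 10.9% of all members. Their H3K27 density was 0.794 times the mean and their input density 0.517 times. Of them 19 (3.51%) were enriched over exon length as well, against 3.55% of all members. Vomeronasal receptor genes had 55 of 143 enriched (38.5%), or 15.4% with the interval condition, with densities of 0.460 and 0.317 times the mean. Only 1 vomeronasal gene (0.699%) was enriched over exon length as well, against 3.55% of all members. These families hold near-identical copies, and how reads were shared between copies is not given in the sources used here. The Zfp zinc finger genes were enriched in 38 of 338 (11.2%) and depleted in 47 (13.9%, against 11.6% of all members), with a median of -0.26.

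Enriched genes lay beside each other on the chromosomes. Of 3272 enriched genes placed in gene order, 1477 (45.1%) had an enriched gene next to them, against 29.0% of the other members. Without olfactory and vomeronasal receptors these shares were 42.7% and 28.4%. Depleted genes had a depleted neighbour in 26.5%, against 20.9%. Runs of at least 4 adjacent genes with the same call numbered 54 for enriched and 8 for depleted genes. These counts are not directly comparable, since 18.0% of members were enriched and 11.6% depleted. The longest held 8 enriched genes on chromosome 9 from the T cell genes Cd3d and Cd3e to the sodium channel genes Scn2b and Scn4b, with 463 H3K27 and 91 input reads (2.67-fold, interval 2.13 to 3.38). A run of 6 on chromosome 3 held epidermal genes, among them Flg2, Hrnr and Tchh (410 and 59 reads, 3.65-fold, interval 2.77 to 4.88). Runs of 5 held Kcna1, Kcna5 and Kcna6 with Ntf3 on chromosome 6 (427 and 73 reads, 3.07-fold) and the skeletal myosins Myh1, Myh2, Myh3, Myh4 and Myh8 on chromosome 11 (332 and 71 reads, 2.46-fold). The longest depleted run was 7 histone genes on chromosome 13, from Hist1h4h to Hist1h1e (110 and 194 reads, 0.298-fold, interval 0.233 to 0.378). Genes within a run can share domains of signal and overlap in exons, so they are not independent of each other.

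The mK4 pair shares no library with the mK3 pair and was called in the same way, with 2981 of 18010 members enriched (16.6%) and 2413 depleted (13.4%). Among 17362 genes with at least 10 reads in both lines, 1176 were enriched in both, which is 39.2% of the mK3 calls and 41.6% of the mK4 calls. For developmental factors the same count was 80, which is 60.2% of 133 in mK3 and 58.0% of 138 in mK4. The base share differed as well, since 40% of these factors were enriched in mK4, against 16.3% of all 17362 genes. Of 618 genes enriched over both input and exon length in mK3, 326 (52.8%) were enriched over input in mK4. Nkx2-1 was at 4.61-fold in mK3 and 4.59-fold in mK4, Hand2 at 4.20 and 4.02, and Epha8, an ephrin receptor of neurons, at 6.04 and 6.43. The Nkx family as a whole stood lower in mK4, with 5 of 11 members enriched, against 12 of 13 in mK3. Its median log2 fold was 0.72 in mK4 and 2.00 in mK3, and its summed fold 1.96 (interval 1.58 to 2.46) and 2.98. Other genes were far apart. Lhx1 was at 7.22-fold in mK3 and 1.0 in mK4 (35 and 28 reads there), Wnt7b at 6.50 and 0.947 (33 and 28), Shh at 6.51 and 1.02 (19 and 15), and Cdh5 at 2.84 and 0.765 (20 and 21). With 1 library per line these differences between the lines were not tested.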

How the data were processed

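ChIP-seq and input libraries of mK3 (H3K27 and input), and the same pair from mK4, were used as deposited. Per the file headers, each row gives a gene, its exon length, a whole-read count and an RPKM value. The deposited counts, set against exon length, were read as reads over exons; per the submitters' processing notes they are on mm9. The authors' RPKM values were recomputed from the counts and exon lengths and were used only for that check. The exon length of each gene, another deposited column, served as the second background. The alignment, including the treatment of duplicate or multiply mapped reads, is not given in the sources used here. Signal upstream of exons is then not in these values.

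Of 22088 rows, 151 repeated a symbol and the row with most reads was kept, leaving 21937. Each count was divided by its column sum (593079 for mK3 H3K27, 311409 for mK3 input, 481235 and 386695 for mK4). Folds are ratios of shares with 95% exact Clopper-Pearson intervals, and a gene at 0 in a library was set against a floor of 3 counts there. Reads carry no molecular identifiers, so the intervals cover counting error only. With 1 library per group no model and no p-value was used. The fold and interval code was tested on simulated data (Python 3.11.15). TMM factors of edgeR 4.0.16 and size factors of DESeq2 1.42.0 were used as alternative scalings only.

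The gene classes are 48 written lists and 20 symbol patterns. The members and lists were chosen with earlier results of these data known. Named genes are the 15 with the highest lower and the 15 with the lowest upper interval bound, up to 4 highest and 2 lowest members of each list by the same bounds, and 17 fixed by name, so the genes named show the ends of each list. Some genes that this rule names are not reported here. Members of the runs of adjacent genes, and the examples set beside mK4, were picked after their values were seen. Gene order, synonyms and promoter sequence came from RefSeq tables of GRCm38.p6, in which 19350 symbols matched directly, 2293 by synonym and 294 not at all.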

Additional observations from a re-analysis of the deposited data

Results flagged for a closer look

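The genes below were called enriched over input in 1 line and depleted in the other, among the genes named here. The difference between the lines was not tested, since each line had 1 library of each kind. For Rfng, Ccr1l1, Myl3 and Tas2r137 the counting interval holds 1 in at least 1 line, and for Nog, Msx1 and Pcdha2 in neither. Nog, the BMP antagonist, was at 3.15-fold in mK3 (84 and 14 reads) and 0.491 in mK4 (22 and 36). Rfng, a Notch-modifying glycosyltransferase gene, was at 5.78-fold in mK3 (22 and 2 reads) and 0.459 in mK4 (8 and 14, interval 0.167 to 1.17). Ccr1l1, a chemokine receptor-like gene, was at 4.07-fold in mK3 (31 and 4 reads) and 0.438 in mK4 (6 and 11, interval 0.133 to 1.29).

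Msx1, the mesenchymal homeobox gene, was at 0.278-fold in mK3 (9 and 17 reads) and 17.7-fold in mK4 (22 reads and 1 read). Pcdha2, of the clustered protocadherins, was at 0.0292-fold in mK3 (1 and 18 reads) and 2.30-fold in mK4 (40 and 14). Myl3, a slow muscle and ventricular myosin light chain gene, was at 0.477-fold in mK3 (10 and 11 reads, interval 0.182 to 1.24). In mK4 Myl3 was at 3.62-fold (9 and 2, interval 0.748 to 34.4). The bitter taste receptor gene Tas2r137 was at 0.334-fold in mK3 (7 and 11 reads) and 2.57-fold in mK4 (16 and 5). Over all 17362 genes with enough reads in both lines, 102 were enriched in mK3 and depleted in mK4, and 59 the reverse.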

How the results depend on the processing

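No paired analysis was possible because each group has 1 library and the labels carry no replicate numbers. Against 3308 enriched and 2134 depleted genes, a 3-fold line gave 1452 and 560, a 1.5-fold line 5333 and 4771, a minimum of 30 reads 1734 and 1093, and a pseudocount of 5 reads 1916 and 1023. An interval above 1 as a further condition left 2016 enriched. Exon length in place of input gave 1205 enriched genes, and both backgrounds together, added after the data were seen, 654 enriched and 606 depleted. Other scalings (TMM, DESeq2 size factors, centring on the median) and the summed inputs of both lines kept both counts within 1.5 times. Of the developmental factors, 84 were enriched at 3-fold and 81 over both backgrounds. Their summed fold was 1.29 with the pseudocount, 1.55 against exon length, 1.48 against summed inputs and 1.52 without Hox genes. Ribosomal protein genes came to 0.769 with the pseudocount. Against exon length 21 of the named genes changed side: Gpr77 0.943, Kcnq1 0.931, Rplp0 0.999, Hnrnpa1 0.871, Myog 0.992, Epha7 0.960 and Krtap10-10 0.965 fell below 1, while Gas1 1.14, Fzd7 1.16, Myl3 1.16, Ccr1 1.11, Ccl7 2.36, Klf3 1.09, Klf10 1.38, Gpr151 1.09, Hoxa10 7.45, Hoxa9 1.15, Cyr61 1.45, Ier2 1.31, Mrps34 1.05 and Hist1h4h 1.1 came above it. That setting leaves out the input reads, whose density enters the fold; no further cause was tested. Of 68 lists, 50 had a summed fold over 1, and 52 against exon length and 54 against summed inputs. The size of the fold depended more on the background. Counting all developmental factors as a further list, 46 lists left their counting interval against exon length and 18 against summed inputs. Of the named genes, 144 besides the 21 left theirs against exon length, and 26 against summed inputs. At these depths a gene with fewer than 10 reads could not be placed.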

Other observations

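Other gene groups in mK3 are given beside the 18.0% of all members that were enriched. Imprinted genes, which are expressed from 1 parental copy, were near it, with 8 of 34 members enriched (23.5%) and 1 depleted (median log2 fold 0.32). Dlk1, a paternally expressed growth regulator, had 46 H3K27 reads and 8 input reads (3.02-fold, interval 1.41 to 7.41), and Dio3, in the same domain, had 39 and 6 (3.41-fold). Interleukin and receptor genes were enriched in 27 of 79 (34.2%) and depleted in 2, cytochrome P450 genes in 25 of 89 (28.1%) and depleted in 2, and solute carrier genes in 79 of 325 (24.3%) and depleted in 17. Chemokine genes and receptors were nearer the members at large, with 8 of 45 enriched (17.8%) and 4 depleted (median 0.10).

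Among the genes with the lowest upper bound were 2 immediate early genes, Ier2 (19 and 48 reads) and Cyr61 (28 and 61 reads). Their H3K27 densities were 1.31 and 1.45 times the mean of all genes. Csnk2b, the regulatory subunit of casein kinase 2, had 5 and 33 reads (0.0796-fold). Across chromosomes the summed fold of the members ranged from 0.927 on chromosome 3 to 1.09 on chromosome 7, and the share of enriched members from 14.5% to 24.4%.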
